A study of Mus musculus with 12 samples.

Results

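The choroid plexus is a fold of epithelium in the brain ventricles that secretes cerebrospinal fluid. It is not part of the hippocampus, but in the lateral ventricle it is attached along the hippocampal fimbria. Its epithelial cells are sealed by tight junctions, move bicarbonate, ions and water towards the ventricle, carry folate, vitamins and metals into the fluid, and secrete carrier proteins such as transthyretin. The 35 genes described here are named for that cell type and were taken by gene symbol from a given list, out of 24421 genes counted in each library. All 35 symbols were present, and 34 of them had counts.

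The 12 libraries were made from polyadenylated RNA of the dorsal hippocampus of single male mice of strain 129sv/C57BL/6j, 4 to 5 months old. They formed 4 groups of 3 mice, namely Mbnl2 KO trained, Mbnl2 WT trained, Mbnl2 KO house control and Mbnl2 WT house control. Mbnl2 encodes a muscleblind-like splicing regulator. The labels give neither the targeted allele nor the training task, and they do not say whether littermates were used. The p-values therefore measure the spread between these mice.

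Mbnl2 itself did not check the genotype labels: its level ran from 454 to 542 CPM (the usual count scaled to library size, here by edgeR's TMM method) in the 6 libraries labelled KO, against 315 to 365 CPM in the 6 labelled WT. The part of the gene that was targeted is not described in the labels, so a count over the whole gene does not test the genotype, and "KO" is used below as the label only. Depth was 19737929 to 27427076 counts a library, so that 3 counts, taken as the lowest level told apart from 0, were 0.105 to 0.154 CPM. That limit covers counting error only. The animal numbers in the labels fell into 2 ranges, 8 libraries in the first and 4, namely replicate 3 of each group, in the second.

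Choroid plexus genes differed widely between mice of the same group. In each of the 4 groups 1 library had little of them: KO-labelled trained replicate 1, WT trained replicate 2, KO-labelled house control replicate 2 and WT house control replicate 1. The summed level of the 35 genes ran from 289 CPM in WT trained replicate 2 to 24613 CPM in WT house control replicate 3, an 85.1-fold span. Without Ttr the sum ran from 275 to 11252 CPM, a 41.0-fold span. In bulk tissue, fewer cells of a type and less RNA per cell cannot be told apart.

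**Figure D1:**
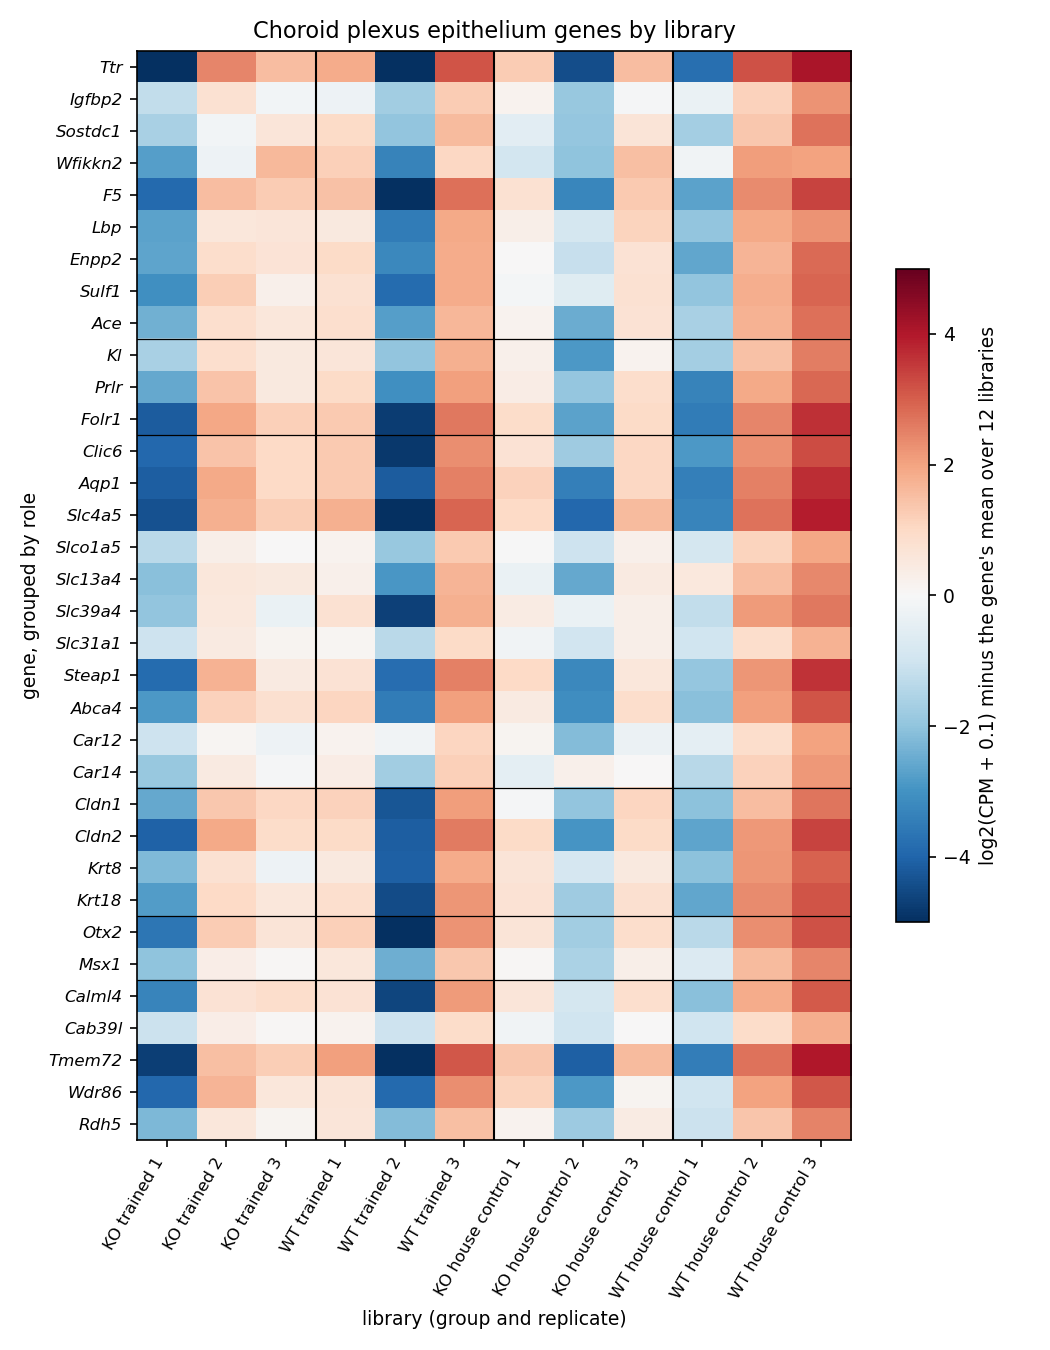
Each row is 1 of the 34 choroid plexus epithelium genes with counts, ordered by role, and each column is 1 library. Colour gives log2(CPM + 0.1) minus the gene's mean over the 12 libraries, with colours saturating at the ends of the scale. A mostly blue column stands in each group of 3, and 33 of the 34 genes were highest in the rightmost column, WT house control replicate 3.

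Ttr, which encodes transthyretin, the carrier of thyroid hormone and retinol-binding protein in cerebrospinal fluid, had the highest mean level, although Enpp2 exceeded it in each of the 4 low libraries. The share of Ttr in the summed level of the 35 genes ran from 5.02% to 58.3%. Ttr was at 23.2, 4255 and 2293 CPM in the KO-labelled trained libraries (replicates 1 to 3, in that order throughout), 2870.2, 14.5 and 6920.2 CPM in WT trained, 1915, 36.2 and 2312 CPM in KO-labelled house control and 57.9, 7202 and 13360.4 CPM in WT house control libraries. The 4 low libraries, 1 in each group, held at most 57.9 CPM and the other 8 at least 1915 CPM, a 33.1-fold gap with no library in it, and all 4 groups overlapped. In counts, WT trained replicate 2 had 362 and WT house control replicate 3 had 323564. The group means followed the libraries that were not low, and the SD between mice was about as large as each mean. Means and SDs were 2190 ± 2118 CPM in KO-labelled trained, 3268 ± 3470 CPM in WT trained, 1421 ± 1216 CPM in KO-labelled house control and 6874 ± 6657 CPM in WT house control libraries (SD, n = 3 each).

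Per kilobase of exon, the scale on which genes can be set against each other, Ttr also stood first, with a median over the 12 libraries of 1941 CPM per kb. Enpp2 came next, at 279 CPM per kb. Igfbp2 at 34.6, Clic6 at 16.8, Kl at 15.8, Sostdc1 at 14.3 and Ace at 13.4 CPM per kb followed. The lowest medians above 0 were those of Slco1a5 at 0.3002, Wdr86 at 0.782 and Tmem72 at 0.873 CPM per kb. Tmem72 has a long exon model of 17.18 kb, which lowers its value on this scale.

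Among the other secreted proteins and processing enzymes, Enpp2 (chromosome 15, 54838901 to 54952892, minus strand, GRCm38) encodes autotaxin, which makes lysophosphatidic acid. Enpp2 was at 159, 1831 and 1603 CPM in KO-labelled trained, 1916, 106 and 3627 CPM in WT trained, 1024, 452 and 1626 CPM in KO-labelled house control and 164, 3225 and 7127 CPM in WT house control libraries. Its low libraries were those of Ttr, and the highest of these 4 was KO-labelled house control replicate 2. Igfbp2 was at 28.8, 117 and 61.6 CPM in KO-labelled trained, 56.9, 20.3 and 166 CPM in WT trained, 77.4, 18.5 and 66.3 CPM in KO-labelled house control and 54.2, 152 and 323 CPM in WT house control libraries. Igfbp2 encodes a binding protein of insulin-like growth factors, and its span over the libraries was 17.5-fold. F5 (coagulation factor V) spanned 395-fold, Sulf1 (an endosulfatase of heparan sulfate) 113-fold, Lbp (lipopolysaccharide-binding protein) 57.1-fold, Ace (angiotensin-converting enzyme) 46.4-fold and Sostdc1 (an antagonist of BMP and Wnt signals) 26.5-fold.

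Of the 4 receptors and membrane cofactors, Kl, Prlr and Folr1 had counts. Kl (chromosome 5, 150952607 to 150993817, plus strand) encodes klotho, a co-receptor of fibroblast growth factor signalling that is also shed into the fluid. Kl was at 37.1, 202 and 161 CPM in KO-labelled trained, 175, 29.2 and 387 CPM in WT trained, 135, 15.5 and 127 CPM in KO-labelled house control and 34.5, 313 and 673 CPM in WT house control libraries. For Kl the lowest of all libraries was KO-labelled house control replicate 2, and the span was 43.4-fold. Prlr was at 4.40, 71.4 and 37.9 CPM in KO-labelled trained, 52.0, 3.09 and 111 CPM in WT trained, 34.4, 6.97 and 48.6 CPM in KO-labelled house control and 2.57, 98.7 and 194 CPM in WT house control libraries. Prlr, the prolactin receptor, was the 1 gene whose lowest value fell in WT house control replicate 1. Its gene model overlaps Gm21973 on the same strand, so its reads are uncertain.

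Folr1 (chromosome 7, 101858331 to 101870788, minus strand) encodes folate receptor alpha, which carries folate across this epithelium. Folr1 was at 0.421, 35.1 and 21.0 CPM in KO-labelled trained, 22.5, 0.241 and 58.0 CPM in WT trained, 17.3, 1.33 and 18.0 CPM in KO-labelled house control and 0.720, 50.6 and 117 CPM in WT house control libraries. The 4 low libraries had at most 1.33 CPM and the others at least 17.3 CPM, and the span of 487-fold was second to that of Ttr among the 25 genes with more than 3 counts in every library. Mfrp, a frizzled-related membrane protein, had 0 counts in every library. Its gene model shares exons with C1qtnf5, which was also at 0 in every library, and the sources used here do not state how shared exons were counted. The 0 therefore does not show that the transcript was missing.

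The 11 genes of ion, water, metal and solute transport spanned very different ranges. Clic6 (chromosome 16, 92485736 to 92541243, plus strand), a chloride channel protein, had the highest mean CPM of them. Clic6 was at 2.03, 88.6 and 65.4 CPM in KO-labelled trained, 80.8, 1.04 and 165 CPM in WT trained, 53.5, 9.29 and 66.4 CPM in KO-labelled house control and 4.37, 160.5 and 314 CPM in WT house control libraries. Its span was 301-fold, and Aqp1, the water channel of the ventricular face, had a similar one of 297-fold. Slc4a5, a sodium bicarbonate cotransporter, ran from 0.120 CPM (3 counts) in WT trained replicate 2 to 136 CPM in WT house control replicate 3. Steap1, of the metalloreductase family, ran from 0.0383 CPM in KO-labelled trained replicate 1 to 24.1 CPM in WT house control replicate 3. Abca4, a lipid and retinoid flippase known from photoreceptors, spanned 107-fold.

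Metal and acid-base genes with a narrower span kept a sizeable level in the low libraries. Slc31a1 was at 19.2, 54.3 and 44.0 CPM in KO-labelled trained, 42.4, 15.7 and 76.8 CPM in WT trained, 35.1, 20.5 and 48.7 CPM in KO-labelled house control and 20.05, 73.4 and 131 CPM in WT house control libraries. Slc31a1 encodes the high-affinity copper importer, and its 8.38-fold span was among the narrowest. Car12 was at 25.7, 56.7 and 44.4 CPM in KO-labelled trained, 58.7, 46.2 and 111 CPM in WT trained, 57.8, 11.7 and 42.9 CPM in KO-labelled house control and 37.8, 96.1 and 211 CPM in WT house control libraries. Car12, a membrane carbonic anhydrase, spanned 18.1-fold, and in WT trained replicate 2 it was above KO-labelled trained replicate 3 and KO-labelled house control replicate 3, which were rich in Ttr. Slc39a4, a zinc importer, was at 0 in WT trained replicate 2 and at 15.7 CPM in WT house control replicate 3, at least 131-fold higher against a limit of 3 counts per library. Slco1a5, an organic anion transporter, did not pass 4.25 CPM in any library.

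Tight junction and keratin genes had few counts in the low libraries, at most 31 in any of the 4 for each of these genes. Cldn2 was at 0.421, 32.1 and 16.2 CPM in KO-labelled trained, 17.0, 0.401 and 52.0 CPM in WT trained, 16.7, 1.03 and 16.6 CPM in KO-labelled house control and 1.29, 38.7 and 90.3 CPM in WT house control libraries. Cldn2 (chromosome X, 139800828 to 139811386, plus strand) encodes claudin 2, which forms the leaky cation pores of this epithelium, and it spanned 225-fold. Cldn1 was at 0.765, 12.8 and 10.3 CPM in KO-labelled trained, 11.2, 0.161 and 21.7 CPM in WT trained, 4.85, 1.1802 and 10.8 CPM in KO-labelled house control and 1.13, 14.7 and 32.7 CPM in WT house control libraries. Cldn1, the claudin that seals junctions, spanned 204-fold. Krt18 was at 0.344, 6.08 and 4.43 CPM in KO-labelled trained, 5.39, 0.0401 and 14.1 CPM in WT trained, 4.93, 0.800 and 5.31 CPM in KO-labelled house control and 0.411, 15.8 and 27.4 CPM in WT house control libraries. Krt18 had 1 count in WT trained replicate 2. Krt8, its filament partner, was at 0 there and at 12.9 CPM in WT house control replicate 3, at least 107-fold higher against a limit of 3 counts per library.

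The 2 transcription factors showed the same low libraries. Otx2 (chromosome 14, 48657677 to 48673819, minus strand) encodes a homeodomain factor that the choroid plexus epithelium needs to form. Otx2 was at 0.497, 17.7 and 11.3 CPM in KO-labelled trained, 16.9, 0.0401 and 34.9 CPM in WT trained, 11.3, 2.13 and 13.6 CPM in KO-labelled house control and 2.83, 36.5 and 66.8 CPM in WT house control libraries. It had 1 count in WT trained replicate 2. Its gene model overlaps Gm49154 on the same strand and Otx2os1 on the other, so part of these reads is uncertain. Msx1 was at 1.30, 7.01 and 5.75 CPM in KO-labelled trained, 8.29, 0.923 and 14.1 CPM in WT trained, 5.81, 1.79 and 6.80 CPM in KO-labelled house control and 3.39, 16.9 and 30.5 CPM in WT house control libraries. Msx1 (chromosome 5, 37820485 to 37824583, minus strand) encodes a homeodomain factor of the dorsal midline, and its span of 33.1-fold was narrower than that of most of the group.

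The last 5 genes encode other intracellular and membrane proteins. Cab39l was at 25.4, 67.3 and 55.5 CPM in KO-labelled trained, 60.2, 25.8 and 98.9 CPM in WT trained, 47.2, 26.2 and 53.4 CPM in KO-labelled house control and 26.7, 100.3 and 189 CPM in WT house control libraries. Cab39l, a scaffold of STK kinases, had the narrowest span of all, 7.44-fold. Tmem72 was at 0.115, 15.8 and 12.9 CPM in KO-labelled trained, 22.8, 0.0401 and 47.7 CPM in WT trained, 14.2, 0.228 and 16.4 CPM in KO-labelled house control and 0.411, 36.1 and 89.6 CPM in WT house control libraries. Tmem72, a transmembrane protein of unassigned function, had 1 count in WT trained replicate 2. Rdh5 was at 1.38, 10.3 and 7.44 CPM in KO-labelled trained, 10.5, 1.44 and 19.6 CPM in WT trained, 7.82, 1.87 and 9.21 CPM in KO-labelled house control and 3.19, 18.1 and 39.1 CPM in WT house control libraries. Rdh5, a retinol dehydrogenase, spanned 28.4-fold, and its model overlaps Bloc1s1 on the same strand. Calml4, which is calmodulin-like, ran from 0.0803 to 36.5 CPM, and Wdr86, a WD-repeat protein, from 0.0765 to 23.0 CPM.

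**Figure D2:**
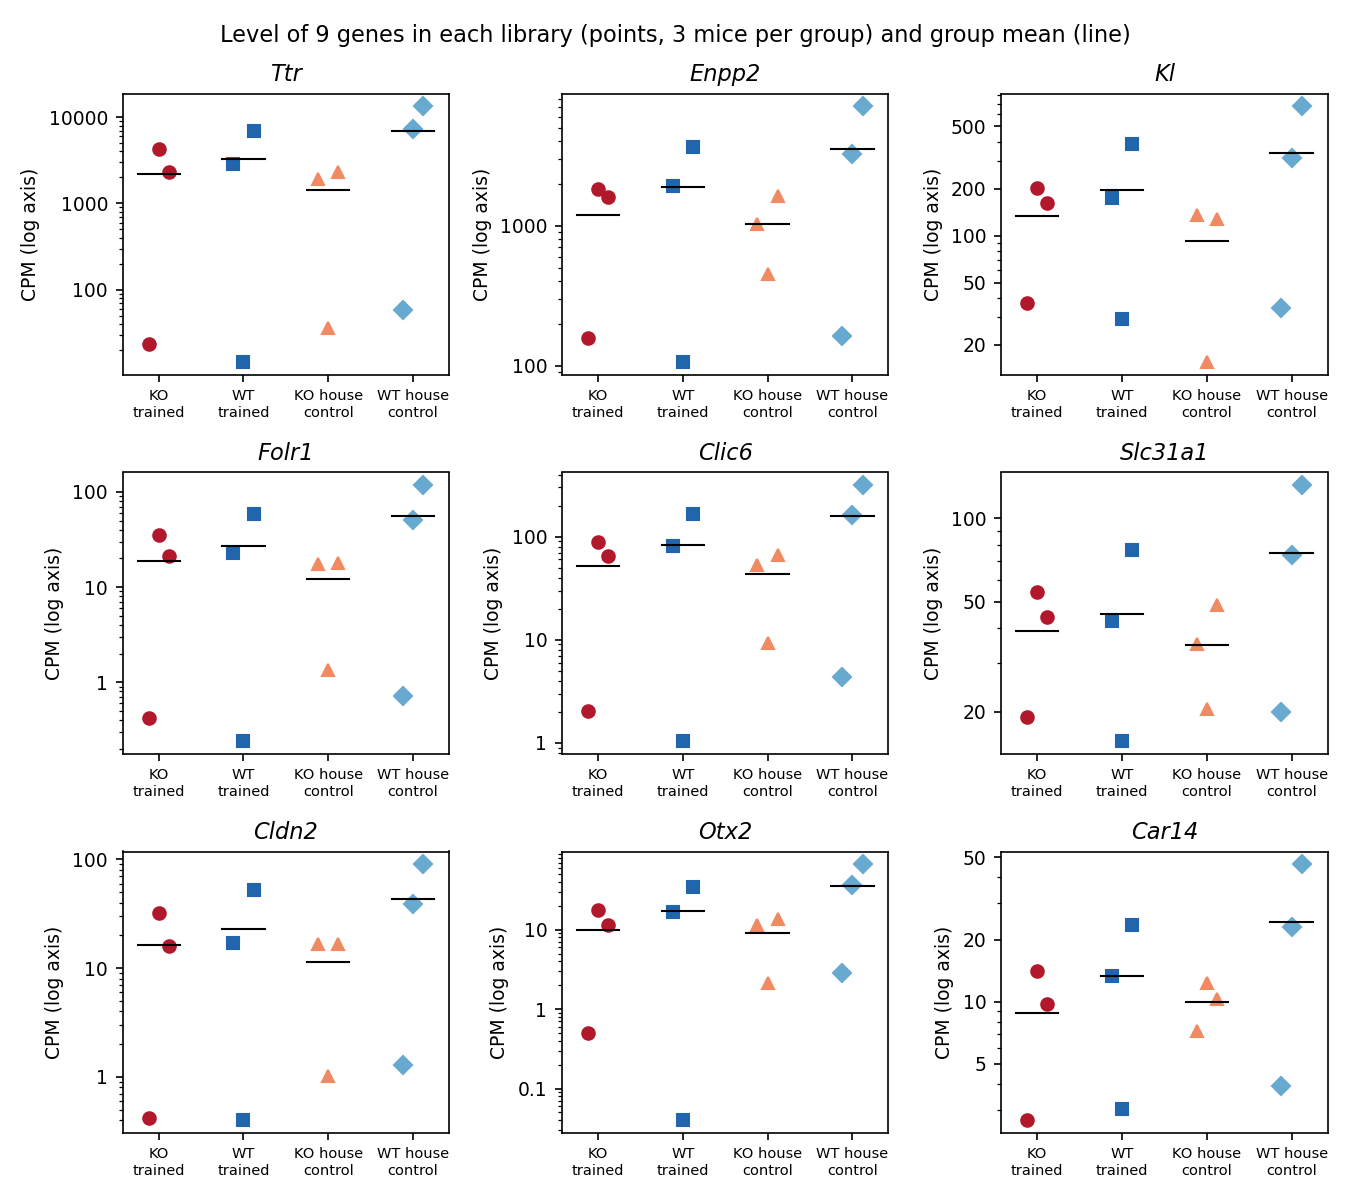
Each panel plots the CPM of 1 gene on a log axis in each library, with 3 mice a group and the group mean as a line. The groups overlap in every panel. In every panel but that of Car14 the lowest point of each group is the same library as for Ttr, with a wide gap below the other points for Ttr and Folr1 and a narrow one for Slc31a1. For Car14, KO-labelled house control replicate 2, at 12.3 CPM, is the highest of its group.

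Across the 25 genes with more than 3 counts in every library the median span from lowest to highest library was 53.9-fold, 9 genes spanned over 100-fold and 23 over 10-fold. A further 7 genes had 1 to 3 counts in their lowest library and 2 had 0 there. WT house control replicate 3 was the highest library for 33 of the 34 genes, and WT house control replicate 2 for Wfikkn2. The lowest library was WT trained replicate 2 for 25 genes, KO-labelled trained replicate 1 for 5, KO-labelled house control replicate 2 for 3 and WT house control replicate 1 for 1.

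Within groups, the order of the libraries was largely that of Ttr. Of the 33 other genes tested, 32 (97%) had their lowest library where Ttr had it in all 4 groups, against 3.71% of all 15621 other genes tested. The full order of the 3 libraries was that of Ttr in all 4 groups for 19 of 33 genes (57.6%), against 1.45% of all genes. Only Car14 had another lowest library in 1 group, the KO-labelled house controls. Wfikkn2 kept the lowest library in all 4 groups but shared the highest with Ttr in only 1.

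To measure this co-variation, each gene was fitted by edgeR's quasi-likelihood test with a mean for each of the 4 groups and a slope on log2 Ttr CPM, so that differences between groups did not enter the slope. A slope of 1 means that a gene's level moved in proportion to Ttr. With Benjamini-Hochberg adjustment over all 15621 genes and a threshold of 0.05, 32 of 33 choroid plexus genes rose with Ttr and 0 fell, where the background of genes called was 2.3% positive and 0.102% negative. The median slope was 0.51 over the 33 genes and -0.00 over all genes. The genes were listed as markers of one cell type, and these p-values treat them one at a time.

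Slopes varied among genes, and the ranges of the roles overlapped. Tmem72 had a slope of 1.00 (SE 0.03, adjusted p = 1.26e-07, edgeR) and Slc4a5 one of 0.93 (SE 0.02, adjusted p = 2.03e-08, edgeR). Aqp1 at 0.84 and Folr1 at 0.82 followed. Transport genes ran from 0.19 to 0.93 with 10 of 11 called, and secreted proteins from 0.29 to 0.79 with all 8 others than Ttr called. All 3 receptors (0.43 to 0.82), all 4 junction and keratin genes (0.53 to 0.76), both transcription factors (Msx1 at 0.37 and Otx2 at 0.62) and all 5 others (0.22 to 1.00) were called too.

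At the shallow end, Car12 had a slope of 0.19 (SE 0.04, adjusted p = 0.0439, edgeR), Cab39l one of 0.22 and Slc31a1 one of 0.24. Cab39l and Slc31a1 were also the genes with the narrowest spans. The call of Car12 was lost in 9 of the 12 fits that left out 1 library, and that of Wfikkn2 (slope 0.44, adjusted p = 0.0339, edgeR) in 8 of 12. Car14 was the gene that was not called, at 0.26 (SE 0.07, adjusted p = 0.0800, edgeR). It was called by DESeq2 (adjusted p = 8.60e-05) and without KO-labelled house control replicate 1 or 2, and its adjusted p ran up to 0.376 as other libraries were left out.

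**Figure D3:**
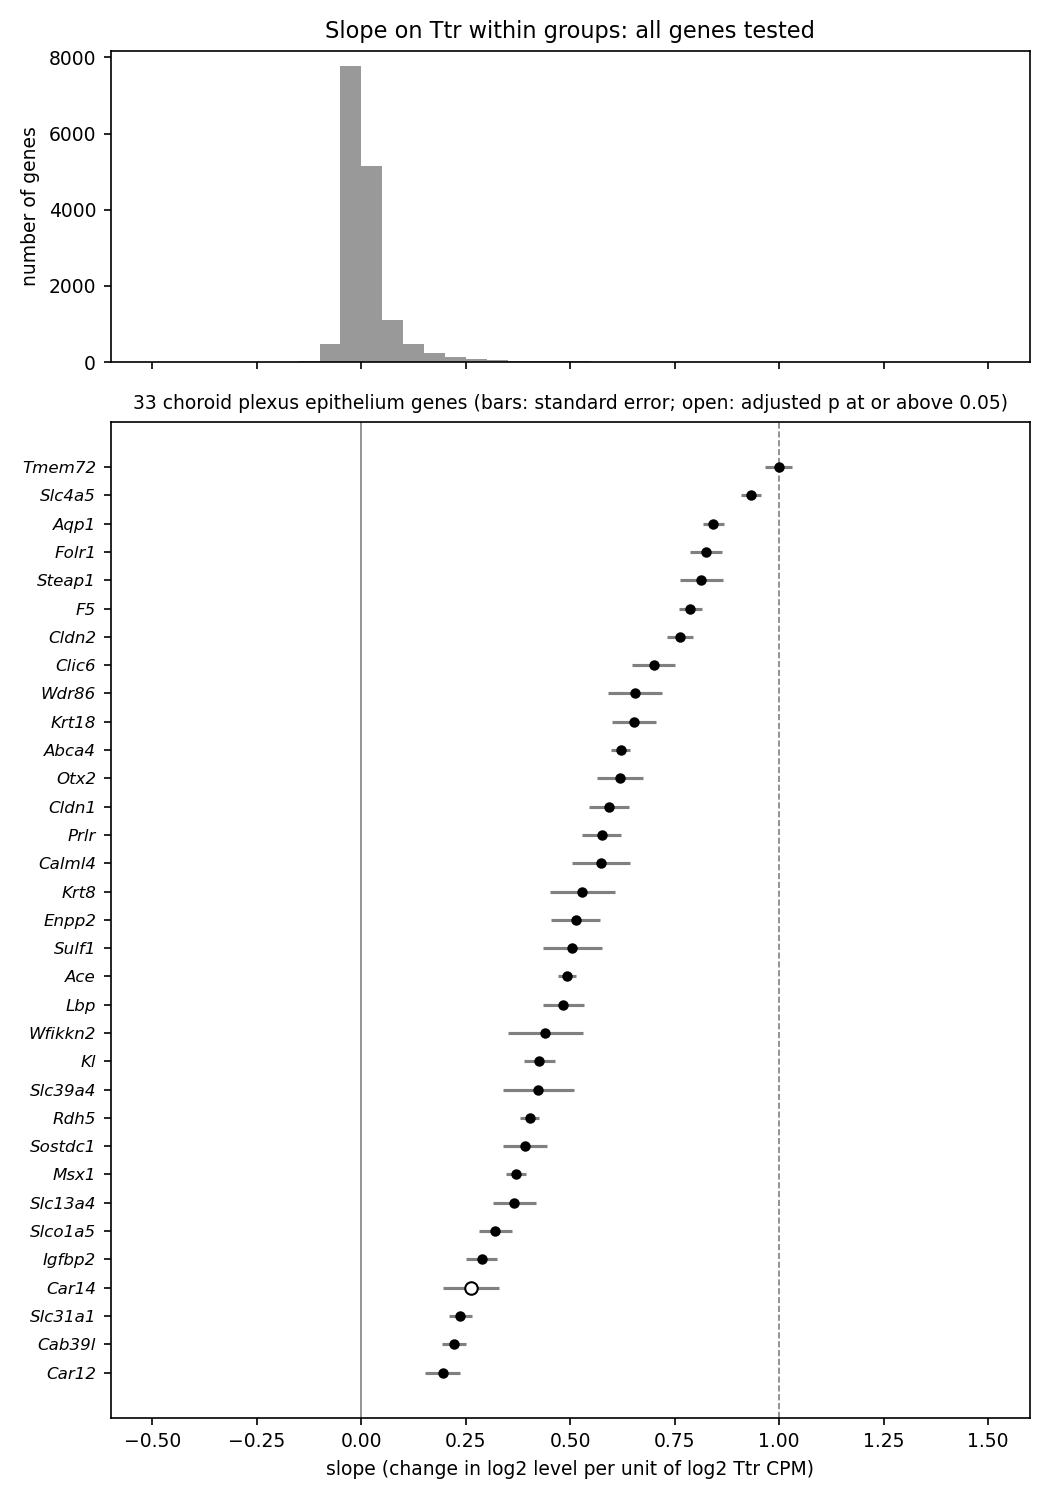
The upper panel counts all genes tested by their slope on log2 Ttr CPM within groups, and the lower panel gives the 33 choroid plexus genes with their standard errors. The genes run from 0.19 for Car12 to 1.00 for Tmem72, the 1 open point is Car14, and the dashed line marks proportion to Ttr.

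Car14 (chromosome 3, 95897768 to 95904691, minus strand), another membrane carbonic anhydrase, was singled out after its values were seen. Car14 was at 2.68, 14.2 and 9.77 CPM in KO-labelled trained, 13.3, 3.01 and 23.5 CPM in WT trained, 7.23, 12.3 and 10.3 CPM in KO-labelled house control and 3.91, 23.0 and 46.2 CPM in WT house control libraries. The KO-labelled house control replicate 2 was the lowest of its group for all other choroid plexus genes tested and had the highest Mbp, the myelin basic protein transcript, of all libraries, at 7260 CPM. Enpp2 at 452 CPM and Sulf1 at 16.1 CPM were also higher there than in the other 3 low libraries. So were many more of the choroid plexus genes, among them Clic6 at 9.29, Lbp at 10.8, Prlr at 6.97 and Folr1 at 1.33 CPM. Others, such as Ttr and Kl, were not. The summed level of 8 myelin markers was 13873 CPM in that library and 2789 to 12567 CPM in the other 11, and 0 of the 8 was called for a slope on Ttr. Their part in the Car14 value was not tested. Car14 also overlaps Aph1a on the opposite strand, and no source used here states whether the counting used strand.

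The slopes kept their direction, with 1 exception, but most calls were lost without the 4 low libraries. In that fit, chosen after seeing the data and with 2 libraries a group left, 32 of 33 slopes were positive, with a median of 0.84, but 3 of 33 were called, where the background was 0.0512% of genes. These were Cldn2 at 1.23, Prlr at 0.98 and Otx2 at 0.84, and Wfikkn2 was negative at -0.38. Genes with shallow slopes over all 12 libraries were steeper here, though not called: Igfbp2 at 1.13, Car12 at 0.73, Slc31a1 at 0.68 and Cab39l at 0.62. Within the first range of animal numbers alone, with 2 libraries a group, 17 of 33 genes were called (background 0.293%) with a median slope of 0.50, and with the range as a covariate 29 of 33 (background 0.89%). The second range holds 1 library a group and gives no slope. With Folr1 in place of Ttr as the covariate 33 of 33 others were called (background 4.24%), and with Kl 30 of 33 (background 2.61%). Without the 2 libraries farthest from the median of Ttr, 19 of 33 were called (background 0.399%). By DESeq2 all 33 genes had a positive slope that was called, where the background was 5.31% positive and 1.11% negative.

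**Figure D4:**
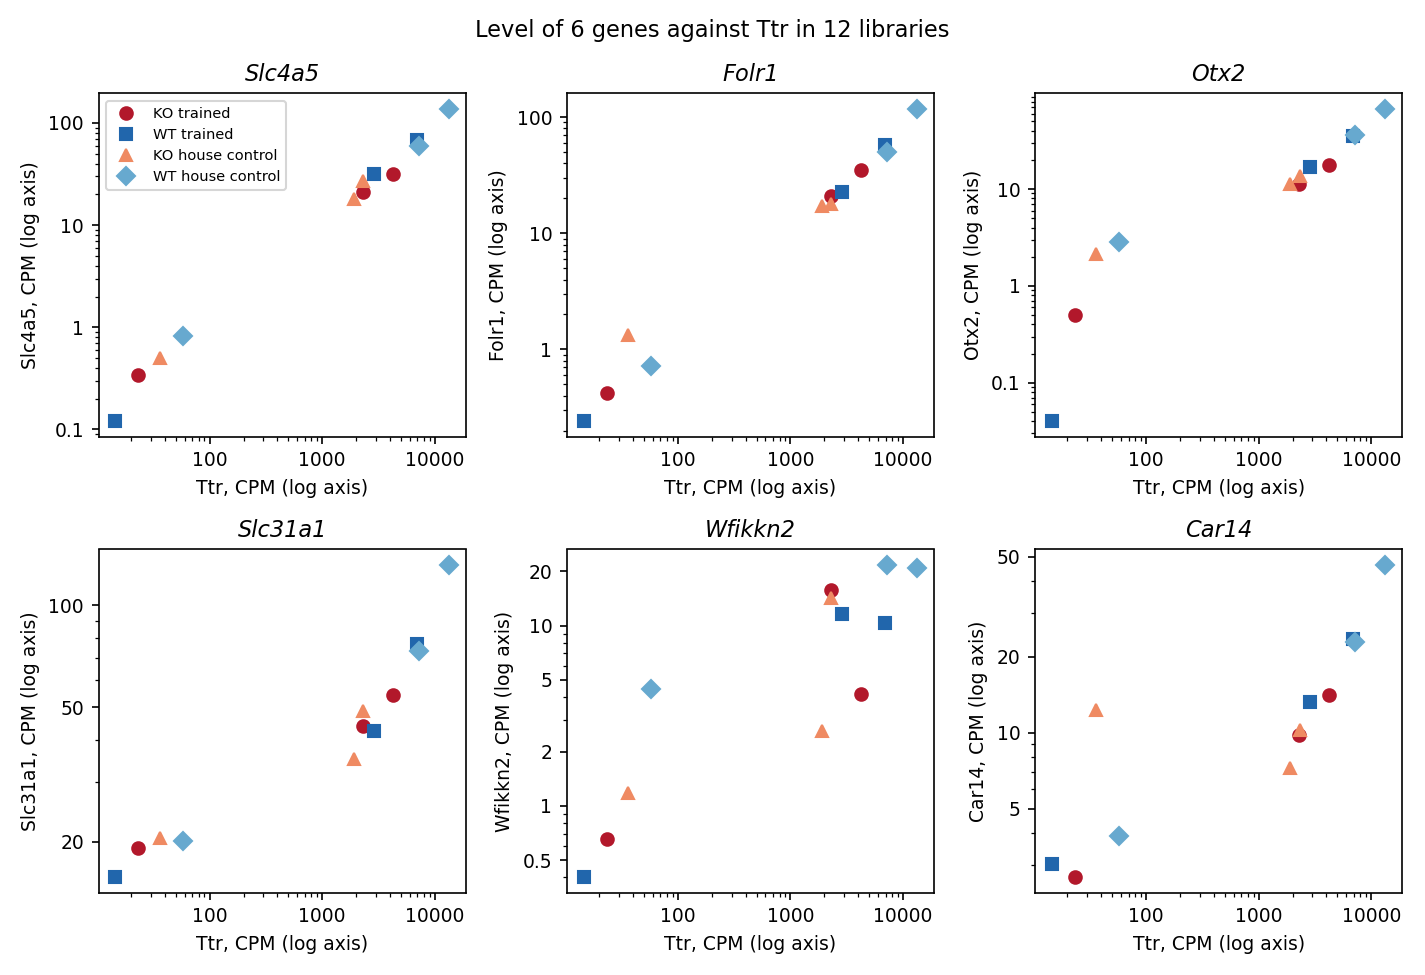
Each panel plots the CPM of 1 gene against that of Ttr in the 12 libraries, both on log axes, with a symbol for each group. 4 libraries lie at the low end, at or below 57.9 CPM of Ttr, and 8 at or above 1915 CPM. Slc4a5, Folr1 and Otx2 follow Ttr over both, Slc31a1 more shallowly, Wfikkn2 spreads among the 8 and Car14 has 1 high point among the 4.

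Among the 8 libraries with much Ttr, in which Ttr itself spanned 6.98-fold, most genes stayed close to a fixed ratio to it. The level per 1000 CPM of Ttr spanned 1.31-fold for Folr1, from 7.02 in WT house control replicate 2 to 9.18 in KO-labelled trained replicate 3. The median span was 1.77-fold over the 33 genes, and 21 of them were under 2-fold. Only Sostdc1, at 3.19-fold, and Wfikkn2, at 6.95-fold, were over 3-fold.

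Wfikkn2 (chromosome 11, 94235956 to 94246005, minus strand) encodes a secreted multidomain protein that binds growth factors of the TGF-beta family, and was singled out after its values were seen. Wfikkn2 was at 0.650, 4.19 and 15.7 CPM in KO-labelled trained, 11.6, 0.401 and 10.4 CPM in WT trained, 2.59, 1.1802 and 14.2 CPM in KO-labelled house control and 4.47, 21.7 and 20.8 CPM in WT house control libraries. Its ratio was 0.986 per 1000 CPM of Ttr in KO-labelled trained replicate 2 and 6.85 in KO-labelled trained replicate 3. In each group of KO-labelled libraries the library of the second animal number range was the highest for Wfikkn2, and Sostdc1 had the same order there. This was not so for Wfikkn2 in the WT groups, where replicate 1 of the trained and replicate 2 of the house controls were highest. Ttr was also highest in KO-labelled house control replicate 3, and Lbp and Calml4 were highest in KO-labelled trained replicate 3.

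Promoters of the genes with the steepest slopes that have an entry, of Car14, and of the 2 further genes with the letters TAATCC nearest to the start are shown, since Otx2 and Msx1 varied along with the rest. RefSeq's table for GRCm38.p6, covering 250 bases before to 50 bases after a start site, held 36 promoters of 27 of the 35 genes. TAATCC, a word bound by Otx2-type homeodomains, was searched on both strands, as was TAATTG, a word bound by Msx-type homeodomains; both start with TAAT but neither contains the other. Capitals mark these words.
Tmem72, chr6:116716709-116717008, minus strand: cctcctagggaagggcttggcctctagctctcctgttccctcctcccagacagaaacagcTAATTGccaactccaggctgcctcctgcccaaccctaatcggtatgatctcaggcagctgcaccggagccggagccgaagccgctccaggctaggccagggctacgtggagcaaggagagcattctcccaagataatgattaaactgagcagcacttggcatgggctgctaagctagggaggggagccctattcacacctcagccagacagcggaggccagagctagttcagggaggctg
Slc4a5, chr6:83237125-83237424, plus strand: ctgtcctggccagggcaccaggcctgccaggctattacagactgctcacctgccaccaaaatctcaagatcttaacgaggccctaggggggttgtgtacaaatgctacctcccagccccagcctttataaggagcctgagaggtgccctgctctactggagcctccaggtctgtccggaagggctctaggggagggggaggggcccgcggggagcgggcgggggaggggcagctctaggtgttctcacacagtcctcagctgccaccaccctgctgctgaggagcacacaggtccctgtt
Aqp1, chr6:55336049-55336348, plus strand: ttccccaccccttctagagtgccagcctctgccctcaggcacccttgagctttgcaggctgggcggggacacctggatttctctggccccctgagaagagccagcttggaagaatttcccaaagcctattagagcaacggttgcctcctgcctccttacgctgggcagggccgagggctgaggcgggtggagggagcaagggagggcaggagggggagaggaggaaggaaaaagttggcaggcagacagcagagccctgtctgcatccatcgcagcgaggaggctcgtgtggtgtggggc
Abca4, chr3:122044210-122044509, plus strand: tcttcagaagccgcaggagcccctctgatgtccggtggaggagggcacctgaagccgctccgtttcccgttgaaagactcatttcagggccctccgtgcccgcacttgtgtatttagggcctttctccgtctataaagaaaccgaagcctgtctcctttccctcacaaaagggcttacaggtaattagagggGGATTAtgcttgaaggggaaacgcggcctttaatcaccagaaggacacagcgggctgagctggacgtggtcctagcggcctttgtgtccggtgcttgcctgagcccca
Ace, chr11:105967698-105967997, plus strand: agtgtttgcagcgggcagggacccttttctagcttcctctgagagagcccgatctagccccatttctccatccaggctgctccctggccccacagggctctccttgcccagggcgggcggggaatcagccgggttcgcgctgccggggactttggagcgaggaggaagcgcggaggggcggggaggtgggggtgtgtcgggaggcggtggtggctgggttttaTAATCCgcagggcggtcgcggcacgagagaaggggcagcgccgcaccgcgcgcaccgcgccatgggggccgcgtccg
Car14, chr3:95904636-95904935, minus strand: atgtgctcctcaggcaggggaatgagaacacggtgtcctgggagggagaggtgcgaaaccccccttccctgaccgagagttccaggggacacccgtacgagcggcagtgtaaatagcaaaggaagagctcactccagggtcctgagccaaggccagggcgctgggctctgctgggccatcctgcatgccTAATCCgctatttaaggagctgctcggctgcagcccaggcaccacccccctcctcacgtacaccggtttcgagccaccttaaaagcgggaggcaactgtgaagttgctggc

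TAATCC or its reverse complement stood in 5 of the 36 promoters (13.9%), against 7.06% of all 32851 promoters of the same length. TAATTG or its reverse complement stood in 4 of 36 (11.1%), against 8% of all. Of the 6 shown, Abca4 and Ace were picked for having TAATCC, and Car14 has it too. Tmem72 has TAATTG only, while Slc4a5 and Aqp1 have neither word in this window. The Slc4a5 window lies inside the gene, whose GENCODE model starts at 83219828. The Aqp1 window ends before the start of its GENCODE model at 55336432. A word in a window describes its letters and says nothing of binding.

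Other genes varied in the same way. A further list of choroid plexus epithelium genes had 43 members in the files and 42 tested, of which 27 rose with Ttr and 0 fell, with a median slope of 0.28 and the same background of 2.3% and 0.102%. The smallest p-values among them were those of Kcne2 (0.83) and Kcnj13 (0.82), both of potassium channels, the cation channel Trpv4 (0.57), the lactate transporter Slc16a8 (0.50), the cytochrome oxidase subunit Cox8b (0.56) and the collagen Col8a1 (0.70). Over all genes outside the 35 with a mean of at least 1 CPM, the 10 smallest p-values of a positive slope belonged to Kcne2, Wdr72, Tmprss11a, Wfdc2, Kcnj13, Rbm47, Trpv4, Epn3, Slc16a8 and Prr32. Wfdc2, a secreted protein of the whey acidic protein family, had a slope of 1.05 (SE 0.05, adjusted p = 2.04e-06, edgeR) and the protease gene Tmprss11a one of 0.98.

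Markers of neighbouring cell types were listed beside them, where the background of genes called was 2.3% positive and 0.102% negative. Of 12 ependymal markers 2 rose with Ttr, Cfap126 at 0.29 and Mia at 0.32, and their summed level ran from 29.8 to 58.9 CPM in KO-labelled trained, 13.004 to 94.6 CPM in WT trained, 58.7 to 90.2 CPM in KO-labelled house control and 30.6 to 200.1 CPM in WT house control libraries. All 12 slopes were positive, with a median of 0.20, and 7 (58.3%) had an unadjusted p under 0.05. Of all genes, 10.5% had a positive slope with such a p. Foxj1, the ciliary regulator, had the highest mean of them, at 24.9 CPM, and is also on the further choroid plexus list. Of 14 leptomeningeal fibroblast markers 1 rose, the growth factor gene Igf2, and their sums were 342 to 716 CPM, 225 to 1296 CPM, 259 to 738 CPM and 1388 to 1926 CPM in the same 4 groups. Ptgds, their most abundant gene at a mean of 430.3 CPM, is also on the further choroid plexus list. Slc47a1 was at 0 in 1 library. All 14 leptomeningeal slopes were positive, with a median of 0.06, and 2 (14.3%) had an unadjusted p under 0.05.

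Of the remaining lists, 0 of 10 endothelial, 0 of 6 border macrophage, 0 of 11 thalamus and habenula, 0 of 8 myelin and 0 of 12 hippocampal neuron markers were called in either direction. Of the 10 endothelial slopes 7 were positive, with a median of 0.01. A positive slope with an unadjusted p under 0.05 was found for 3 of these 10 (30%), against 10.5% of all genes.

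Most slopes of the myelin and of the thalamus and habenula markers were positive, although none was called. All 8 myelin slopes were positive, with a median of 0.12, and 3 had an unadjusted p under 0.05. Of the 11 thalamus and habenula slopes 10 were positive, with a median of 0.21, and 6 had an unadjusted p under 0.05, where 10.5% of all genes had a positive slope with such a p. The summed myelin level was lowest in its group in 3 of the 4 libraries low in Ttr, at 3709 CPM in KO-labelled trained replicate 1, 2789 CPM in WT trained replicate 2 and 3218 CPM in WT house control replicate 1. In the fourth, KO-labelled house control replicate 2, it was the highest of all. The summed thalamus and habenula level ran from 86.5 to 214 CPM in KO-labelled trained, 190.05 to 275 CPM in WT trained, 133 to 446 CPM in KO-labelled house control and 209.7 to 413 CPM in WT house control libraries. The part of these tissues in the slopes of the choroid plexus genes was not tested.

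Hba-a1 and Hbb-bt among 5 blood markers were at 0 in every library, which was not taken to show that blood was missing. The 1 blood marker tested, Alas2, had a slope of 0.09 (unadjusted p = 0.0119, edgeR) and was not called. Flt1 at a mean of 58.6 CPM, Mrc1 at 4.02 CPM and Prkcd at 92.5 CPM were the most abundant endothelial, macrophage and thalamus markers. Neurod2, the most abundant hippocampal marker, averaged 316 CPM and ran from 198 to 430 CPM, and the 12 hippocampal markers summed to 798 to 1661 CPM with a median slope of -0.04 and 3 of 12 slopes positive. In KO-labelled trained replicate 1, at 1644 CPM, and WT trained replicate 2, at 1661 CPM, that sum was the highest of its group. So it was in WT house control replicate 1, at 1565.5 CPM, and all of these were low in Ttr. In KO-labelled house control replicate 2, also low in Ttr, the sum was the lowest of all libraries, at 798 CPM. The part of these differences in the slopes was not tested.

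Genotype was compared within each treatment and over both, with 1 model of 4 group means over the 12 libraries. None of these 34 genes was called in any genotype comparison by edgeR's quasi-likelihood test, by DESeq2 or in the authors' deposited tables. In house controls, 0 of 34 were called, where the background was 0.0064% of genes in each direction, and 1 had an unadjusted p under 0.05. All 34 had a negative log2 fold change of KO-labelled over WT libraries, with a median of -1.85 against -0.00 over all genes, but the genes do not vary independently of each other. Their standard errors ran from 0.67 to 2.13, where the median gene had 0.16.

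In house controls, WT replicates 2 and 3 were both above all 3 KO-labelled house control libraries for 33 of the 34 genes, while WT house control replicate 1 was not. The share of all genes with such an order was not counted, and the 34 genes do not vary independently of each other. The groups did not overlap for 1 of 34 genes, against 13% of all genes. Without WT house control replicate 3 the median was -0.92, and without the 4 low libraries it was -1.95 with 0 genes called. Car12 had the smallest p, with a log2 fold change of -1.62 (SE 0.68, adjusted p = 0.446, edgeR), followed by Cab39l at -1.32, Igfbp2 at -1.71 and Slc13a4 at -2.06. Ttr was at -2.27 (SE 2.13, adjusted p = 0.718, edgeR).

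Slc13a4, a sodium sulfate cotransporter, was the gene without overlap and was named after its values were seen. Slc13a4 was at 4.90, 31.8 and 30.0 CPM in KO-labelled trained, 25.2, 2.73 and 69.4 CPM in WT trained, 17.1, 3.50 and 29.0 CPM in KO-labelled house control and 30.6, 62.3 and 113 CPM in WT house control libraries. In WT house control replicate 1, where Ttr was at 57.9 CPM, Slc13a4 stood above every KO-labelled house control. In that library the leptomeningeal transporter genes Slc6a13, at 30.3 CPM, and Slc22a6, at 19.1 CPM, were the highest of all 12 libraries, where the others held 1.87 to 14.3 CPM and 1.13 to 7.08 CPM. Igfbp2, at 54.2 CPM, was there above the other 3 libraries low in Ttr. The same held for Ttr itself and for many other choroid plexus genes, among them Ace at 14.7, Msx1 at 3.39, Abca4 at 3.24 and Otx2 at 2.83 CPM. It did not hold for others, such as Enpp2 and Kl. The part of the leptomeningeal transcripts in these values was not tested.

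In trained mice, 0 of 34 genes were called, where the background was 0.0064% in each direction, and 0 had an unadjusted p under 0.05. All 34 had a negative log2 fold change, with a median of -0.64, and the groups overlapped for all 34, against 14% of all genes that did not overlap. Car12 again had the smallest p (log2 fold change -0.77, SE 0.67, adjusted p = 0.941, edgeR), and Slc39a4 at -1.11, Sostdc1 at -0.92 and Msx1 at -0.74 followed. Ttr was at -0.58 (SE 2.04). The direction depended on single libraries: without WT trained replicate 3 the median was 0.36 with 30 of 34 positive, and within the first animal number range it was 0.13 with 26 of 34 positive.

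Over both treatments, 0 of 34 genes were called, where the background was 0.384% higher and 0.192% lower, and 1 had an unadjusted p under 0.05. The median was -1.24 with all 34 negative. Car12 was at -1.19 (SE 0.47, adjusted p = 0.282, edgeR), Msx1 at -1.28, Sostdc1 at -1.42 and Slc13a4 at -1.30. Ttr was at -1.43 (SE 1.47). Within the first animal number range the median was -0.58, with 33 of 34 negative.

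Training was compared within each genotype, and these comparisons use the same libraries as those of genotype. In WT mice, 0 of 34 genes were called (background 0% in each direction) and 0 had an unadjusted p under 0.05. All 34 had a negative log2 fold change of trained over house control libraries, with a median of -0.99, and 0 of 34 were without overlap, against 14.8% of all genes. Igfbp2 had the smallest p (-1.12, SE 0.86, adjusted p = 0.567, edgeR), and Ttr was at -1.07 (SE 2.05). Without WT house control replicate 3 the median was -0.04 with 13 of 34 positive, and without WT trained replicate 2 it was -0.43.

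In KO-labelled mice, 0 of 34 genes were called (background 0% in each direction), 0 had an unadjusted p under 0.05, and 0 were without overlap, against 7.88% of all genes. 25 genes had a positive and 9 a negative log2 fold change, with a median of 0.22. Kl had the smallest p (0.53, SE 1.13, adjusted p = 1.00, edgeR), and Ttr was at 0.62 (SE 2.04). Without KO-labelled trained replicate 2 the median was -0.40, and without KO-labelled house control replicate 2 it was -0.20.

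Over both genotypes, training called 0 of 34 genes (background 0% in each direction), with 0 at an unadjusted p under 0.05 and a median of -0.38. That median was 0.11 without WT house control replicate 3. Slc39a4, at -0.78, had the smallest p. The interaction of genotype and training called 0 of 34 genes (background 0% in each direction), with 0 at an unadjusted p under 0.05. All 34 were positive with a median of 1.15, led by Igfbp2 at 1.48 (SE 1.21, adjusted p = 1.00, edgeR). Without WT house control replicate 3 the median was 0.27 with 29 positive, and without WT trained replicate 3 it was 2.18.

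**Figure D5:**
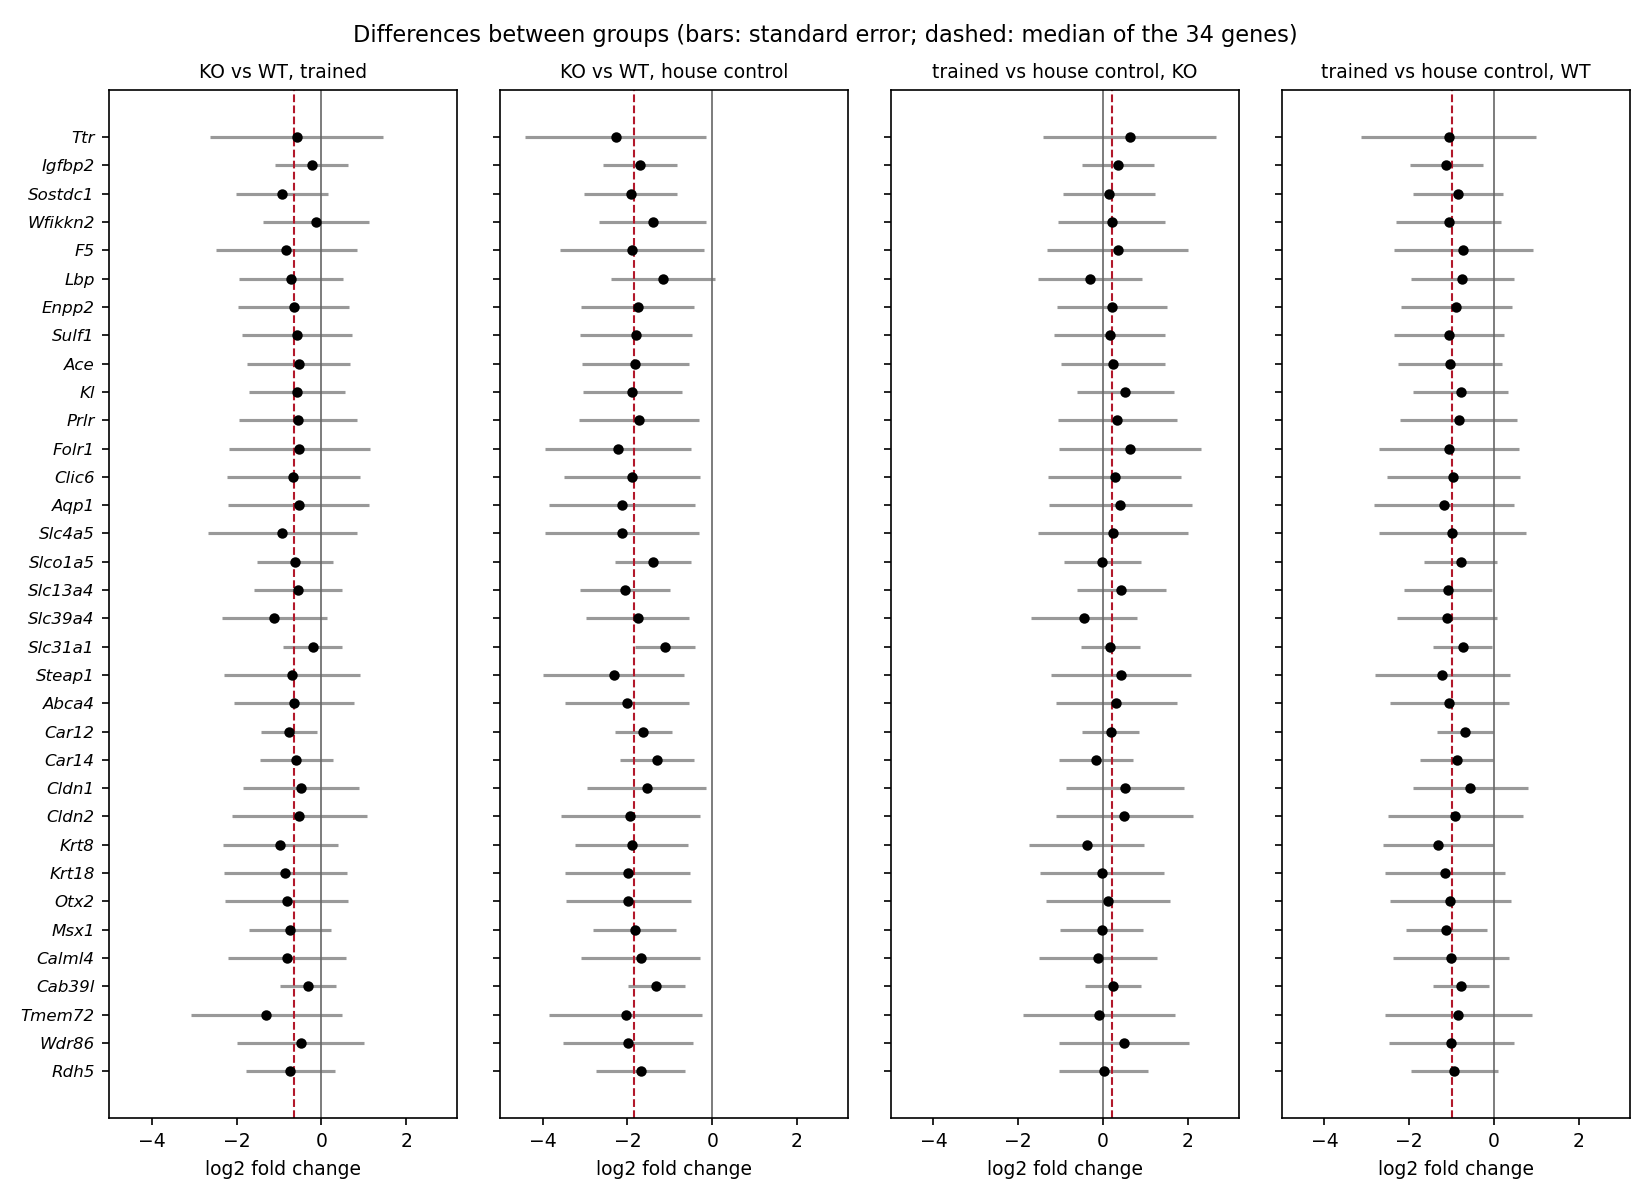
Each panel gives the log2 fold change of the 34 genes in 1 comparison, with standard errors as bars and the median of the 34 as a dashed line. The medians stand at -0.64 for KO-labelled over WT in trained mice, -1.85 in house controls, 0.22 for trained over house control in KO-labelled mice and -0.99 in WT mice, and 0 genes were called in any panel.

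The authors also deposited 1 table of tests for each pair of groups. In the authors' deposited table of KO over WT in house controls the median log2 fold change of the 34 genes was -1.85 and the lowest adjusted p 0.329. In the authors' deposited table for trained mice the median was -0.64 and the lowest adjusted p 0.562. The authors' deposited tables of training gave medians of 0.22 in KO-labelled and -0.99 in WT mice. None of the 34 genes was called in any of them. The background of the authors' deposited tables was 0.431% of genes higher and 0.195% lower for genotype in trained mice, and 0.31% higher and 0.0763% lower in house controls. For training, the authors' deposited tables called 0.0307% of genes higher and 0.0409% lower in KO-labelled mice, and 0.0205% higher and 0.0767% lower in WT mice.

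DESeq2, run on the same counts and 15622 genes, also called 0 of the 34 genes in each of the 7 comparisons. For KO-labelled over WT libraries its background was 0.429% of genes higher and 0.25% lower in trained mice, 0.992% higher and 0.301% lower in house controls, and 3.28% higher and 1.36% lower over both treatments. For training it was 0.0256% higher and 0.0192% lower in KO-labelled mice, 0.0192% higher and 0.0832% lower in WT mice, and 0.16% higher and 0.282% lower over both genotypes. For the interaction it was 0% in each direction.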

How the data were processed

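The authors deposited raw counts of reads per gene symbol for each of the 12 libraries. Per the submitters' processing notes, the tools were HTSeq 0.9.1, DESeq2 1.18.1, TopHat2 2.1.1, Bowtie2 2.3.4.2 and cutadapt 1.18, with build mm10. No source used here states the strand setting or the handling of shared exons, and overlapping genes on either strand are therefore uncertain. Each of 4 further tables that the authors deposited holds, per the file headers, 1 comparison as a log2 fold change and its standard error, a test score, and a p-value and its adjusted value.

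Groups came from the labels. Replicates were numbered by accession, and the numbers do not pair mice. Among 12 pairs of libraries within groups, 0 held identical counts. Counts were fitted in R 4.3.3 with edgeR 4.0.16 (filterByExpr with a minimum count of 10 and a minimum total of 15, TMM scaling, robust quasi-likelihood test, 4 group means, 8 residual degrees of freedom), which left 15622 genes. The slope model added log2 Ttr CPM and had 7 residual degrees of freedom. Standard errors given with edgeR were derived from its test. Each is the absolute log2 fold change or slope divided by the square root of the F statistic. The Benjamini-Hochberg adjustment ran over every gene tested, with a threshold of 0.05. Both tests were run on simulated data with known changes, and no result of that check is given here. It is not taken as evidence that changes would be recovered in genes differing as widely between mice as the choroid plexus genes. Lengths and positions are union exons and genes of the GENCODE annotation of GRCm38, the assembly of mm10, which held 23376 of the 24421 symbols.

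The genes and the marker lists were chosen with earlier results of these data known, and no count over them is independent support. Values in every library are given for up to 3 genes per role with the highest mean CPM and for Otx2 and Msx1. The genes with the smallest p are named per comparison, up to 4 of them. Other genes outside the list are the 10 with the smallest p of a positive slope and a mean of at least 1 CPM, up to 6 of the further choroid plexus list and up to 3 per other list. Car14, Wfikkn2, Sostdc1, Slc13a4, Sulf1, the steepest and shallowest slopes, Mbp, Slc6a13, Slc22a6 and C1qtnf5 were named after their values were seen. The alternatives tried were leaving out the low-count filter, median-of-ratios scaling, DESeq2 1.42.0, the animal number range as a covariate or its first part only, the 6 libraries compared, other covariate genes, and leaving out libraries. The summed level of the further choroid plexus list is not reported here.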

Additional observations from a re-analysis of the deposited data

How the results depend on the processing

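The number of choroid plexus genes called for a slope on Ttr was 32 of 33 with all 12 libraries, and it ran from 29 to 33 as each library was left out in turn. It was 17 within the first animal number range, 19 without the 2 libraries farthest from the median of Ttr and 3 without the 4 libraries lowest in Ttr. These 3 fits have fewer libraries, and whether that alone lowers the counts was not tested. Without those 4 libraries the slope of Wfikkn2 was -0.38, and the cause was not tested. The counts of genes called between groups were 0 in all 7 comparisons under every alternative run. The log2 fold change of Ttr between KO-labelled and WT trained libraries was 0.56 within the first animal number range, and it ran from -1.49 to 0.60 over the fits that left out 1 library. That of training in KO-labelled mice ran from -0.29 to 1.20 over the same fits, and that of training over both genotypes from -0.81 to 0.24. Of 316 alternative values for log2 fold changes of single genes, 308 kept their direction. They cover only Ttr and the 1 or 2 genes with the smallest p in each comparison. Over all 34 genes the direction of the majority turned in some comparisons and not in others. In house controls all 34 stayed negative for KO-labelled over WT libraries under every alternative run. These genes do not vary independently of each other. For KO-labelled over WT trained libraries, 30 of 34 were positive without WT trained replicate 3. For training in KO-labelled mice, 29 of 34 were negative without KO-labelled house control replicate 2. Of 418 alternative values for slopes of named genes, 53 lost and 3 gained a call. No paired analysis was possible because replicates were numbered by accession and the numbers do not pair mice. With 3 mice a group and standard errors of 0.47 to 2.89 over the 7 comparisons, these data do not show that choroid plexus genes are alike between groups.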
